A study of Homo sapiens with 16 samples.

Results

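The methionine sulfoxide reductase genes MSRA, MSRB1, MSRB2 and MSRB3 were followed in total RNA-seq of HEK293 cells, a human embryonic kidney line. These 4 genes are the members, out of 19333 genes listed in the table of the series. MSRA was given by its transcript identifier, ENST00000317173, and had been selected on its normalized counts in these same libraries, as a gene with a large rise in Top1 KD cells. Its own difference is therefore described here and not tested. The MSRB genes were taken as the listed gene that overlaps most with a window of known position in the hg19 build, on the right strand. The study asked what happens to R-loops, RNA:DNA hybrids formed during transcription, when cells lose DNA topoisomerase I (Top1), an enzyme that relaxes supercoiled DNA.

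The groups were 2 libraries of scramble cells, transfected with a negative control RNA, and 2 libraries of Top1 KD cells, transfected with 10 nM of siRNA against the Top1 transcript. Both were transfected again along the way and collected 5 days after the first transfection. Which of the Top1 siRNAs these libraries received is not stated in the sources used here. The labels number the libraries as replicates, but state that samples were of different passages without saying more about the cultures, so p-values measure only the spread between these libraries.

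Methionine residues in proteins are easily oxidized to methionine sulfoxide, which exists in an S and an R form. MSRA reduces the S form and the MSRB enzymes reduce the R form, so together they repair oxidized proteins and can reverse regulatory oxidation of methionine. MSRA is found in the cytosol, nucleus and mitochondria, MSRB1 is a selenoprotein of the cytosol and nucleus, MSRB2 is mitochondrial, and MSRB3 is found in the endoplasmic reticulum and mitochondria. Most of these enzymes are recharged by thioredoxin and thioredoxin reductase.

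The libraries held between 14681774 and 18366226 reads on genes. TOP1 itself (ENST00000361337, chromosome 20, 39657458 to 39753127, plus strand) had normalized counts of 1278 and 1246 in scramble cells and 1074 and 932 in Top1 KD cells. Both Top1 KD libraries were lower, as for 29% of all tested genes. The log2 difference of -0.33 (standard error 0.13) was not called (limma adjusted p = 0.109). In the values used here, the labels are thus checked at the RNA level only by this small difference. The paper shows loss of Top1 protein by Western blot and states that RNA-seq verified the knockdown too. VIM, which HEK293 cells were expected to express, had between 789 and 1055 normalized counts. Of 4 markers of other cell types, ALB (hepatocytes) was at 0 in every library, PTPRC (blood cells) and GFAP (astrocytes) were at or under 9.60, and COL1A1 (fibroblasts) was uneven, with 45.9, 0.879, 7.58 and 51.4 in scramble 1, scramble 2, Top1 KD 1 and Top1 KD 2. A normalized count is the number of reads on a gene divided by a factor for the depth of the library, so levels are compared between libraries and not between genes of different length.

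MSRA was the member with a large difference between the groups, for which it had been chosen. It lies on the plus strand of chromosome 8 from 9911778 to 10286401 (hg19), a span of 374624 bases, and no other listed gene overlaps this span on either strand. Its normalized counts were 96.0 and 107 in scramble replicates 1 and 2, and 407 and 355 in Top1 KD replicates 1 and 2. The groups did not overlap, as for 57.8% of all tested genes, of which 28.8% were higher and 29% lower in both Top1 KD libraries. Both Top1 KD libraries of MSRA were far above both scramble libraries. Dividing either Top1 KD library by either scramble library gave a ratio between 3.31 and 4.24, while replicates of the same group differed by 1.12-fold in scramble and 1.15-fold in Top1 KD cells.

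The group means of MSRA were 102 ± 7.998 (SD, n = 2) in scramble and 381 ± 36.9 (SD, n = 2) with Top1 knocked down. On the scale of log2(normalized count + 1) the difference was 1.89. These values rest on 90 and 122 reads in scramble and on 376 and 366 reads in Top1 KD cells. The 95% exact Poisson intervals cover counting error only. They ran from 77.2 to 118 and from 89.1 to 128 normalized counts in scramble. In Top1 KD cells they ran from 367 to 450 and from 319 to 393. Such intervals of MSRB1 lay apart even between replicates of a group, from 120 to 169 and from 62.9 to 96.4 in scramble. Those of MSRB1 in Top1 KD cells ran from 76.4 to 117 and from 122 to 170. Intervals that lie apart are thus no measure of a group difference. By log2 fold change MSRA ranked 121 among all 13086 tested genes, and 2 among the 10308 of these that averaged 100 or more normalized counts. The lowest Top1 KD library exceeded the highest scramble library by at least the 3.31-fold of MSRA in 51 other tested genes, genes at 0 in scramble included, and in 0 others of the 10308. These ranks describe a gene chosen for its rise.

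MSRB1, MSRB2 and MSRB3 did not differ detectably between scramble and Top1 KD cells. Limma was fitted on all 13086 genes that reached 10 normalized counts in 2 or more libraries, and a gene was called when its adjusted p was below 0.05 and it changed 1.5-fold or more. By this rule 0 of these 3 genes were called, and 0 had an unadjusted p under 0.05, which 29.3% of all tested genes had. edgeR and DESeq2 on the recovered reads also called 0 of them. Across all tested genes, 8.15% were called, 3.88% higher and 4.26% lower in Top1 KD cells. All 4 members passed the filter on low values.

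The 100 bases before the RefSeq start of each MSRB gene are given here, 5′ to 3′ on the strand of the gene. They come from the RefSeq promoters (GRCh38.p14), and where transcription starts in these cells was not tested. The counted MSRB1 gene spans 5117 bases, against 4971 in RefSeq, so its ends can differ from those of RefSeq. Capitals mark a GC box, the letters GGGCGG or CCGCCC, as a match of letters and not as a bound site.
MSRB1, chr16:1943200-1943299, minus strand: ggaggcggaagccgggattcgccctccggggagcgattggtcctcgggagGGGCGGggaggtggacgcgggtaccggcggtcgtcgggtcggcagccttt
MSRB2, chr10:23095479-23095578, plus strand: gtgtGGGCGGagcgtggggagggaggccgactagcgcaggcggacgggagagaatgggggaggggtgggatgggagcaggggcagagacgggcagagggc
MSRB3, chr12:65278583-65278682, plus strand: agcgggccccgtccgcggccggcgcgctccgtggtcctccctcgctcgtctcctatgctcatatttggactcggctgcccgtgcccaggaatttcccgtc

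MSRB1 and MSRB2 each held 1 GC box in this window and MSRB3 held 0. Of the 35116 promoters in the RefSeq table, 31.3% held at least 1 in the same window. The windows of the 3 genes were rich in G and C (74%, 73% and 69% for MSRB1, MSRB2 and MSRB3, against a median of 60% over all promoters) and held 14, 7 and 13 CpG pairs, against a median of 5. None of the 3 held the letters TATAAA or TTTATA, which 4.99% of all promoters did.

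MSRB1 lies on the minus strand of chromosome 16 from 1988211 to 1993327 (hg19, ENST00000361871), the shortest of the 4 genes at 5117 bases. It had normalized counts of 143 and 78.3 in scramble replicates 1 and 2, and 95.2 and 144 in Top1 KD replicates 1 and 2. The groups overlapped fully, with 1 high and 1 low library in each. The log2 fold change was 0.15 (standard error 0.40, limma adjusted p = 0.848). Its 95% interval ran from -0.70 to 0.99, that is, from 0.617-fold to 1.99-fold, so changes of over 1.5-fold in either direction lie within it. Scramble replicates differed by 1.83-fold, more than the groups did.

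MSRB2 lies on the plus strand of chromosome 10 from 23384435 to 23410942 (ENST00000376510). Its normalized counts were 429 and 324 in scramble replicates 1 and 2, and 354 and 422 in Top1 KD replicates 1 and 2. As for MSRB1, scramble 1 and Top1 KD 2 were the higher libraries and scramble 2 and Top1 KD 1 the lower ones. The fibroblast marker COL1A1 split the libraries in the same way (45.9 and 51.4 against 0.879 and 7.58 normalized counts), and its part in the values of MSRB1 and MSRB2 was not tested. The log2 fold change was 0.05 (standard error 0.22, limma adjusted p = 0.902), with a 95% interval from -0.41 to 0.51.

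MSRB3 lies on the plus strand of chromosome 12 from 65672423 to 65860687 (ENST00000308259). At 188265 bases it is also a long gene. It had the highest read numbers of the members, with normalized counts of 1138 and 1119 in scramble and 1168 and 1008 in Top1 KD cells. The scramble libraries lay between the 2 Top1 KD libraries, and the log2 fold change was -0.06 (standard error 0.14, limma adjusted p = 0.824). The 95% interval ran from -0.34 to 0.23, that is, from 0.787-fold to 1.17-fold, which leaves out a change of 1.5-fold in either direction.

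Set against MSRB3 within the same library, MSRA stood at 0.0843 and 0.0959 of it in scramble and at 0.348 and 0.352 in Top1 KD cells. The ratio of MSRA to MSRB2 was 0.224 and 0.332 in scramble and 1.15 and 0.841 in Top1 KD cells. The ratio to MSRB1 was 0.672 and 1.37 in scramble and 4.27 and 2.46 in Top1 KD cells. For each partner both Top1 KD libraries were above both scramble libraries. Such ratios are not touched by the scaling of libraries, but as raw ratios of counts they give no relative amount of the transcripts, since gene length was not taken out, and they carry the choice of MSRA.

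The genes next to MSRA on chromosome 8 had smaller differences than MSRA, which had been chosen for its own. Of the 5 listed genes on each side, 7 passed the filter on low values and 0 of these were called by limma. Over all tested genes 8.15% were called, and 7 neighbors are too few to tell 0 from this share. An unadjusted p under 0.05 was found for 2 of them, against 29.3% of all tested genes, and edgeR and DESeq2 called 0. Their log2 fold changes ran from -0.13 to 0.40 with a median of 0.29, against a median of 0.0025 over all tested genes, and 6 of the 7 were above 0. MSRA lay 1.61 above this median on the log2 scale and 1.49 above the highest neighbor.

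TNKS, which encodes the poly-ADP-ribosylating enzyme tankyrase, is the nearest expressed gene before MSRA, 272 kb from its start. It had normalized counts of 1977 and 1840 in scramble and 2220 and 2444 in Top1 KD cells. Both Top1 KD libraries were higher, but the log2 fold change of 0.29 (standard error 0.11) did not pass (limma adjusted p = 0.0994). The gene taken as ERI1, an exonuclease of histone mRNA and small RNAs, whose span differs over 2-fold from the RefSeq length, had 663 and 770 normalized counts in scramble and 934 and 883 in Top1 KD cells (log2 difference 0.35, limma adjusted p = 0.139). MFHAS1 had 759 and 872 in scramble and 1093 and 912 in Top1 KD cells (log2 difference 0.30, limma adjusted p = 0.208). The groups of these 3 genes did not overlap, which also held for 57.8% of all tested genes, with 28.8% higher and 29% lower in both Top1 KD libraries.

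PPP1R3B, a glycogen-targeting subunit of a protein phosphatase, had between 208 and 258 normalized counts in all libraries and a log2 fold change of 0.15 (limma adjusted p = 0.746). CLDN23, a claudin of cell junctions, is low, with between 17.6 and 39.0 normalized counts. On the other side, PRSS55 and C8orf74 were at 0 in every library and RP1L1 was at or under 7.04, so the nearest 3 genes after MSRA were silent or nearly so. SOX7, a transcription factor gene, had between 22.7 and 61.1 normalized counts in all libraries. PINX1, whose product binds telomerase, lies 336 kb after MSRA and had 1072 and 1029 normalized counts in scramble and 890 and 1040 in Top1 KD cells (log2 difference -0.13, limma adjusted p = 0.594). With 10 genes on each side, 10 were tested and 0 were called by limma, edgeR or DESeq2. Limma called 8.15% of all tested genes. An unadjusted p under 0.05 by limma was found for 4 of the 10, against 29.3% of all tested genes. Their median log2 fold change was again 0.29. The highest of the 10 was PRAG1 at 0.85 (limma adjusted p = 0.146), and MSRA lay 1.04 above it. PRAG1 had 80.0 and 88.0 normalized counts in scramble and 202 and 114 in Top1 KD cells. PRAG1 is named here after its values were seen.

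MSRA was also set beside genes of like length, since it is among the long genes of the genome. Of the tested genes, 988 had a span from 0.5 to 1.5 times that of MSRA. Their median log2 fold change was 0.18, and 8.10% were called higher and 2.83% lower. MSRA had the 10th largest log2 fold change among them. Among the 820 that averaged 100 or more normalized counts it had the largest, and the next ones were 1.60 and 1.49. As MSRA was chosen for its rise in these libraries, these ranks only describe it and test nothing about length. MSRB3, inside the same range of length, was at -0.06, so the long members of the family lay at 1.89 and -0.06.

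The 2 genes whose profile over the 4 libraries was most like that of MSRA were found among 10307 others that averaged 100 or more normalized counts, by the Euclidean distance between log2 values centered on their own mean. ENST00000295822 (chromosome 3, 170606204 to 170626482, minus strand) was nearest at 0.25, against a median distance of 1.91. It had 79.0 and 105 normalized counts in scramble and 315 and 314 in Top1 KD cells. ENST00000260630 (chromosome 2, 38294652 to 38303323, minus strand) followed at 0.32, with 59.8 and 51.9 in scramble and 256 and 188 in Top1 KD cells. The search started from the rise for which MSRA was chosen, so that its nearest genes also rise was set beforehand. The distances and their median carry this choice and test nothing. The table pairs neither gene with a name.

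Other genes of methionine and redox metabolism were then read from lists of 52 genes matched to the table, of which 51 were tested. By limma, 1 was called higher and 2 lower in Top1 KD cells, which is 5.88% of those tested, against 8.15% of all tested genes. Their median log2 fold change was 0.03. Without the fold threshold, 11 of the 51 had an adjusted p below 0.05 by limma, against 1937 of all 13086 tested genes. An unadjusted p under 0.05 by limma was found for 18 of the 51, against 29.3% of all tested genes. The 3 called genes were TXNIP, SLC7A11 and PRDX2, and edgeR and DESeq2 each called 3 genes of the lists as well.

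The thioredoxin system, which recharges methionine sulfoxide reductases, had 1 gene called higher and 0 lower of 6 tested, against 3.88% and 4.26% of all tested genes. The rise was that of TXNIP, which binds and inhibits thioredoxin. TXNIP had 277 and 247 normalized counts in scramble and 824 and 872 in Top1 KD cells. Both Top1 KD libraries were above both scramble libraries, as for 28.8% of all tested genes. Its log2 fold change was 1.69 (standard error 0.18, limma adjusted p = 6.34e-05). Thioredoxin itself, TXN, had 1702 and 1863 in scramble and 1172 and 1316 in Top1 KD cells (log2 difference -0.52, limma adjusted p = 0.0115), which did not reach 1.5-fold. TXNRD1, the cytosolic thioredoxin reductase, had a log2 fold change of -0.35 (limma adjusted p = 0.0186), also short of 1.5-fold. The mitochondrial thioredoxin TXN2 and the thioredoxin-like gene TXNL1 had values of -0.07 and 0.05 and did not pass. Of the 6 tested genes, 3 had an unadjusted p under 0.05 by limma, against 29.3% of all tested genes.

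Of 11 genes that remove peroxide or superoxide, 0 were called higher and 1 lower. This single limma call makes a share of 9.09%, close to the 8.15% found for the whole tested set. The list as a whole thus did not stand out by its calls. PRDX2, a cytosolic peroxiredoxin, fell from 2073 and 2010 normalized counts in scramble to 1165 and 1380 in Top1 KD cells (log2 difference -0.69 with a standard error of 0.12, limma adjusted p = 0.00208). The call was lost without scramble replicate 1 (-0.66, limma adjusted p = 0.0679) and without Top1 KD replicate 1 (-0.56, limma adjusted p = 0.0301). PRDX1, its close relative, went the other way without reaching 1.5-fold, from 5876 and 7228 to 8482 and 9601 (log2 fold change 0.47, limma adjusted p = 0.00878). The groups of both genes did not overlap, as for 6 of the 11 genes of this list and 57.8% of all tested genes. PRDX4, SOD1 and SOD2, the others with the highest counts, had log2 fold changes of -0.22, 0.08 and 0.05 and did not pass. The span of the gene taken as SOD2 differs over 2-fold from the RefSeq length, so its identity is less sure.

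Among NRF2 targets and the NRF2 inhibitor KEAP1, 0 of 8 tested genes were called higher and 1 lower by limma, and edgeR and DESeq2 each called 1. Over all tested genes limma called 3.88% higher and 4.26% lower. An unadjusted p under 0.05 was found for 3 of the 8, against 29.3% of all tested genes. SLC7A11, the cystine importer, fell from 818 and 631 normalized counts in scramble to 344 and 343 in Top1 KD cells (log2 fold change -1.06, standard error 0.19, limma adjusted p = 0.00177). This call was lost without scramble replicate 1 (-0.87, limma adjusted p = 0.1003). SRXN1, which repairs oxidized peroxiredoxins, had a value of -0.49 (limma adjusted p = 0.0240) and did not reach 1.5-fold. The ferritin heavy chain gene FTH1 and the glutamate-cysteine ligase genes GCLM and GCLC had values of 0.22, 0.07 and 0.25 and did not pass. The median of the list was -0.32, against 0.0025 over all tested genes. It takes in KEAP1 (-0.39), which is not a target, and 2 genes with low and uneven counts. These were HMOX1 (-0.96, standard error 0.93) and NQO1 (-0.26, standard error 0.94).

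The 7 tested genes of the methionine cycle had 0 calls by limma, edgeR or DESeq2, with 4 at an unadjusted p under 0.05. Over all tested genes limma called 8.15%, and 29.3% had such a p. AHCY, which breaks down S-adenosylhomocysteine, and CBS, which commits homocysteine to cysteine synthesis, had log2 fold changes of -0.55 and -0.44 (limma adjusted p = 0.00878 and 0.00839), both short of 1.5-fold. The span of the gene taken as AHCY differs over 2-fold from the RefSeq length. MAT2A, which makes S-adenosylmethionine, had a value of 0.26 (limma adjusted p = 0.0916), and MTR, methionine synthase, had 0.13 (limma adjusted p = 0.352). MICAL enzymes oxidize methionine in actin, the reaction that MSRB1 reverses. The 3 MICAL genes had 0 calls by any of the 3 tools and 1 unadjusted p under 0.05, with log2 fold changes of 0.24 for MICAL1, 0.49 for MICAL2 and 0.19 for MICAL3.

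MSRB1 needs selenocysteine, so the machinery that inserts it and other selenoproteins were read as well. The 7 genes for selenocysteine insertion had 0 calls by any of the 3 tools and 1 unadjusted p under 0.05, and their median was 0.22. Over all tested genes limma called 8.15%, and 29.3% had such a p. SEPHS1, SEPHS2, SECISBP2 and EEFSEC, which had the highest counts, had log2 fold changes of -0.0021, 0.17, 0.03 and 0.22. The 9 other selenoprotein genes also had 0 calls and 1 unadjusted p under 0.05, with a median of -0.04. That gene was SELENOF, of the endoplasmic reticulum, with a log2 fold change of -0.49 (limma adjusted p = 0.0118), short of 1.5-fold. SELENOI, SELENOT and SELENOO had values of 0.04, 0.21 and -0.10.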

How the data were processed

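Single-end reads from total RNA depleted of ribosomal RNA were cleaned with fastq-mcf and mapped to hg19 with TopHat2 2.0.5, keeping unique reads. The submitters' processing notes also name HTSeq and DESeq2. The strand setting of the counting and the annotation release are not given in the sources used here. For each library the authors deposited a signal, namely each gene's read count divided by the DESeq2 size factor of the library. The other columns of the table, the authors' mean over libraries and their own comparison of the groups, were not used. The columns of all 4 libraries were matched by the labels, and 0 were left without a sample. In each library 100% of the values tested were whole multiples of 1 read (tolerance 0.1), so reads were recovered by rounding. Samples of other assays (DRIP-seq, DRIPc-seq, ChIP-seq) were not analysed here.

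Groups were compared with limma 3.58.1 in R 4.3.3, with a mean-variance trend, on log2(normalized count + 1), where 1 is the pseudocount, over all genes that reached 10 normalized counts in 2 or more libraries. P-values were adjusted by Benjamini-Hochberg over all of them, and a call needed both an adjusted p below 0.05 and a 1.5-fold or larger change. An exact permutation test of 2 against 2 libraries cannot give a two-sided p below 0.333. edgeR 4.0.16 and DESeq2 1.42.0 on recovered reads, other scaling, filters and pseudocounts, the replicate number as a block, and leaving out each library were alternatives. The limma fit was tested on simulated data.

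The table gives no gene names. Except for MSRA, names rest on hg19 positions known beforehand: the gene on the same strand with the largest overlap, with at least 50% of both gene and window covered for genes other than the members. Of 83 genes sought, 81 were matched and NFE2L2 and TXNRD3 were not. All 81 were on the chromosome RefSeq gives (GRCh38.p14), and 76 had a span within 2-fold of the RefSeq length. The exceptions, whose identity is less sure, were AHCY, ERI1, PRSS55, SELENOM and SOD2. The genes named were the members, TOP1, 5 genes on each side of MSRA, the called genes and up to 4 with the highest counts of each list, and the 2 nearest profiles. PRAG1, KEAP1, HMOX1 and NQO1 were named in addition. One gene of the lists is not reported here and was left out of their counts and medians. Members and lists were chosen with earlier results of these data known.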

Additional observations from a re-analysis of the deposited data

How the results depend on the processing

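The log2 fold change of MSRA lay from 1.79 to 1.99 when each library was left out, and its sign under the 11 alternatives was fixed by the choice of this gene and is no sign of stability. For MSRB1, MSRB2 and MSRB3 no alternative gave a call. Their values near 0 changed sign with single libraries, and lay from -0.28 to 0.58, from -0.15 to 0.25 and from -0.16 to 0.049 when each library was left out. MSRB1 and MSRB2 were below 0 without scramble replicate 2 (-0.28 and -0.15) or without Top1 KD replicate 2 (-0.15 and -0.07), and MSRB3 was above 0 (0.049) without Top1 KD replicate 2. These fits assume that the lone library of a group varies like the others. The cause was not tested.

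TOP1 was not called under any of its 11 alternatives, with an adjusted p from 0.0899 to 0.436 and a log2 fold change from -0.44 to -0.23. The number of pathway genes called was 3 under each alternative that kept all libraries, and from 1 to 6 when each was left out, with 1 without scramble replicate 1, 5 without scramble replicate 2 and 6 without Top1 KD replicate 2. The genes next to MSRA had 0 calls under every alternative, and their median lay from 0.219 to 0.238 when each library was left out, against 0.29 with all. MSRA ranked 5 in place of 10 in a narrower window of like length, where 394 genes in place of 988 are compared.

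Of all tested genes, 1937 were called with no fold threshold in place of 1066, and from 316 to 1329 when each library was left out, lowest without scramble replicate 1. It was 424 without scramble replicate 2 and 572 without Top1 KD replicate 1. With library-size scaling the median over all genes was 0.03 in place of 0.0025, and 53.4% of calls were higher in place of 47.7%. With a replicate block 1085 genes were called, and 1054 of them were shared. A pairing by replicate number was not seen, as the correlation of the deviations of same-numbered libraries over 10308 genes was 0.04. With 2 libraries per group this single correlation cannot exclude a pairing. The block changed no call of the genes named here. With 88 to 149 reads per library on MSRB1, depth and replicate spread could hide changes of that gene, including some over 1.5-fold. Its 95% interval ran from 0.617-fold to 1.99-fold.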
